A study of Mus musculus with 6 samples.

Results

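The genes of DNA replication were read in carotid arteries of mice 14 days after a wire injury. They comprise 39 listed genes, from the replication clamp Pcna to the S phase cyclins, and were taken as the probe sets annotated to a single gene symbol on that list. For a gene with several probe sets, the one with the highest mean over the 6 arrays was used. Of the 39 genes, 38 were measured in this way, of 18194 genes in all, and Chaf1a, a subunit of a chromatin assembly factor, had no such probe set. The study compared wild-type mice (WT) with mice carrying a global knockout of the transcription factor IRF4 (IRF4 KO), all with injured arteries. Each genotype had 3 Affymetrix arrays, and each array held RNA of 3 to 5 pooled vessels, so that the spread between arrays is one between pools. The labels do not state age, sex, strain background or the deleted part of Irf4, and no uninjured artery was analysed here. Values are log2 probe set intensities, changes are the mean of IRF4 KO less that of WT, and a change of 1 is a doubling.

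Replication starts at origins that are licensed in G1, when the origin recognition complex (ORC), Cdc6 and Cdt1 load the MCM helicase onto DNA. In S phase the helicase is activated, primase and DNA polymerases copy the strands, and the ring-shaped clamp PCNA, loaded by replication factor C, holds polymerases and other enzymes on the template. Transcription of most of these genes is driven by E2F factors once the retinoblastoma protein releases them. In an injured artery such genes mark dividing cells, among them the smooth muscle cells that form the neointima, and in whole vessels also dividing leukocytes and fibroblasts. In such bulk RNA, fewer cells of a type and less RNA per cell cannot be told apart.

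A sequence feature of part of these genes is the E2F motif, for which the letters TTTNNCGC, with each N a C or a G, were searched on both strands. The windows ran from 250 bases before to 50 after each annotated start (RefSeq, GRCm38.p6), and 32 of the 39 listed genes had at least 1 window. The motif was found for 11 of the 32 genes (34.4%), against 2.60% of the 27025 genes with a window in the same table. Counted by window, it was in 11 of 37 (29.7%), against 744 of 32851 (2.26%). The CCAAT box, another short promoter element, was found for 19 of the 32 genes (59.4%), against 41.1% of all genes. Matches of both motifs can overlap, and a match describes letters, not a bound site. The 11 genes are shown by 1 match each, the longest or else the one farthest upstream, 5′ to 3′ along the gene, with the match in capitals and flanking bases in lower case:
Mcm3 (chr1:20820277-20820302, minus strand): acttccgtgGCGGGAAAacttgggaa
Mcm5 (chr8:75109347-75109376, plus strand): gccaagaacTTTCGCGCCAAAacgtccagc
Mcm6 (chr1:128359795-128359824, minus strand): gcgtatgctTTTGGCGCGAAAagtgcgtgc
Mcm7 (chr5:138172032-138172057, minus strand): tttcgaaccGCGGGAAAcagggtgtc
Pola1 (chrX:93632277-93632302, minus strand): catcacaggGCGCCAAAtgcactccc
Cdc6 (chr11:98908004-98908029, plus strand): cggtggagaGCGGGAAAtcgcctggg
Cdt1 (chr8:122568038-122568063, plus strand): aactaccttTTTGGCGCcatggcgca
Orc1 (chr4:108579418-108579443, plus strand): cggttagtgGCGCGAAAagttttctc
Rfc3 (chr5:151651202-151651227, minus strand): gtcgcacgcTTTCGCGCtcgcgggaa
Lig1 (chr7:13278843-13278868, plus strand): ccaaagtgcGCGCGAAAtctgtgtgg
Uhrf1 (chr17:56304119-56304144, plus strand): cgagtcgggTTTCGCGCgcccaggcg
In Mcm5 and Mcm6 the capitals run over 12 bases because a match on each strand overlaps the other.

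Pcna had no E2F motif of this form in its window, and the letters say nothing on whether E2F factors act there. Its 250 bases upstream of the start are shown beside those of Rrm2 and Mcm5, the members that differed most between arrays, with CCAAT boxes (read as ATTGG on the other strand) and E2F motifs in capitals:
Pcna (chr2:132253181-132253430, minus strand): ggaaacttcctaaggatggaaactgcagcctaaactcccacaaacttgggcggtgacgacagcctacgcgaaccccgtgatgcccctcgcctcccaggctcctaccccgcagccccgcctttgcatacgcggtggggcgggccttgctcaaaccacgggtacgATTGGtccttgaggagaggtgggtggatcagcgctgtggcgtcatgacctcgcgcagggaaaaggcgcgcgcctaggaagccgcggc
Rrm2 (chr12:24708004-24708253, plus strand): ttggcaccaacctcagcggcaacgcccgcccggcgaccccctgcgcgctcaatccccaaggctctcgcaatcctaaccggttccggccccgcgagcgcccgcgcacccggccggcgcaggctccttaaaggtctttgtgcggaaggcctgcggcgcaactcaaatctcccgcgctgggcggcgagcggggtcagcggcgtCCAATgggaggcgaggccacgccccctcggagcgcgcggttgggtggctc
Mcm5 (chr8:75109259-75109508, plus strand): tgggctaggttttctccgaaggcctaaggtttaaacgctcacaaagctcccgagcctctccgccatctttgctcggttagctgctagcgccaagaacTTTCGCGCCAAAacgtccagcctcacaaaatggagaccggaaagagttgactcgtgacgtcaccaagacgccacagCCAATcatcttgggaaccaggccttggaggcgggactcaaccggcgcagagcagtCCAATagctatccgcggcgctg
In these windows Pcna and Rrm2 each held 1 CCAAT box and no E2F motif, whereas Mcm5 held 2 CCAAT boxes and 2 overlapping E2F matches 153 bases before its start.

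WT 3 and IRF4 KO 1 differed from the other 4 arrays in their poly-A controls, bacterial RNAs put into the sample ahead of labelling, which averaged 4.93 and 5.14 against 7.35 to 9.26. The hybridization controls were also lowest in these arrays, at 9.41 and 9.22 against 9.78 to 11.48. As each genotype has 1 such array, both sets of arrays give a genotype difference, which is printed for the members whose array values are given. The smooth muscle identity of the tissue was present in all arrays, with 12 of 12 contractile markers, such as Acta2 and Myh11, above the median gene and a list mean of 10.54 to 10.88 in WT and 10.53 to 11.12 in IRF4 KO. Of these markers, 4 read higher and 8 lower in IRF4 KO, with changes from -0.28 to 1.14. Wholly higher in IRF4 KO were 3 of the 12, against 2.37% of all genes, and 0 passed the limma threshold. Irf4 could not check the genotype labels, since its probe set read 3.90, 3.64 and 3.38 in WT 1, 2 and 3 and 3.27, 3.75 and 3.70 in IRF4 KO 1, 2 and 3, below the median of all gene means (4.89) in both genotypes, and the deleted part is not known here.

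Pcna encodes the sliding clamp, and its transcript and protein are common markers of proliferation. Its single probe set read 8.04, 7.88 and 7.90 in WT 1, 2 and 3 and 8.93, 9.11 and 9.04 in IRF4 KO 1, 2 and 3. All IRF4 KO arrays lay above all WT arrays, and within each genotype the values lay close together. The means were 7.94 ± 0.088 in WT against 9.03 ± 0.091 in IRF4 KO (SD, n = 3), a change of 1.09 (SE 0.17, 95% interval 0.69 to 1.49) or 2.12-fold. Between IRF4 KO 1 and WT 3 it was 1.03 and among the other 4 arrays 1.11. The difference exceeded the spread between arrays, but with limma its adjusted p over all 18194 genes was 0.252, so that Pcna did not pass the threshold of 0.05. Its unadjusted p of 2.22e-04 ranked 16th of 18194. The exact permutation test over arrays, two-sided, gave p = 0.1, the smallest that 3 against 3 arrays allow. Over the other analysis settings tried, the adjusted p of Pcna ran from 0.00178 with array weights to 1.0 without WT 2, without IRF4 KO 2 or with the replicate number as a block, and 0.05 was passed only with the array weights, which gave IRF4 KO 2 a weight of 26.7 and the others 0.279 to 2.57. In that fit Pcna was the 1 member called, against 0.374% of all genes.

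**Figure D1:**
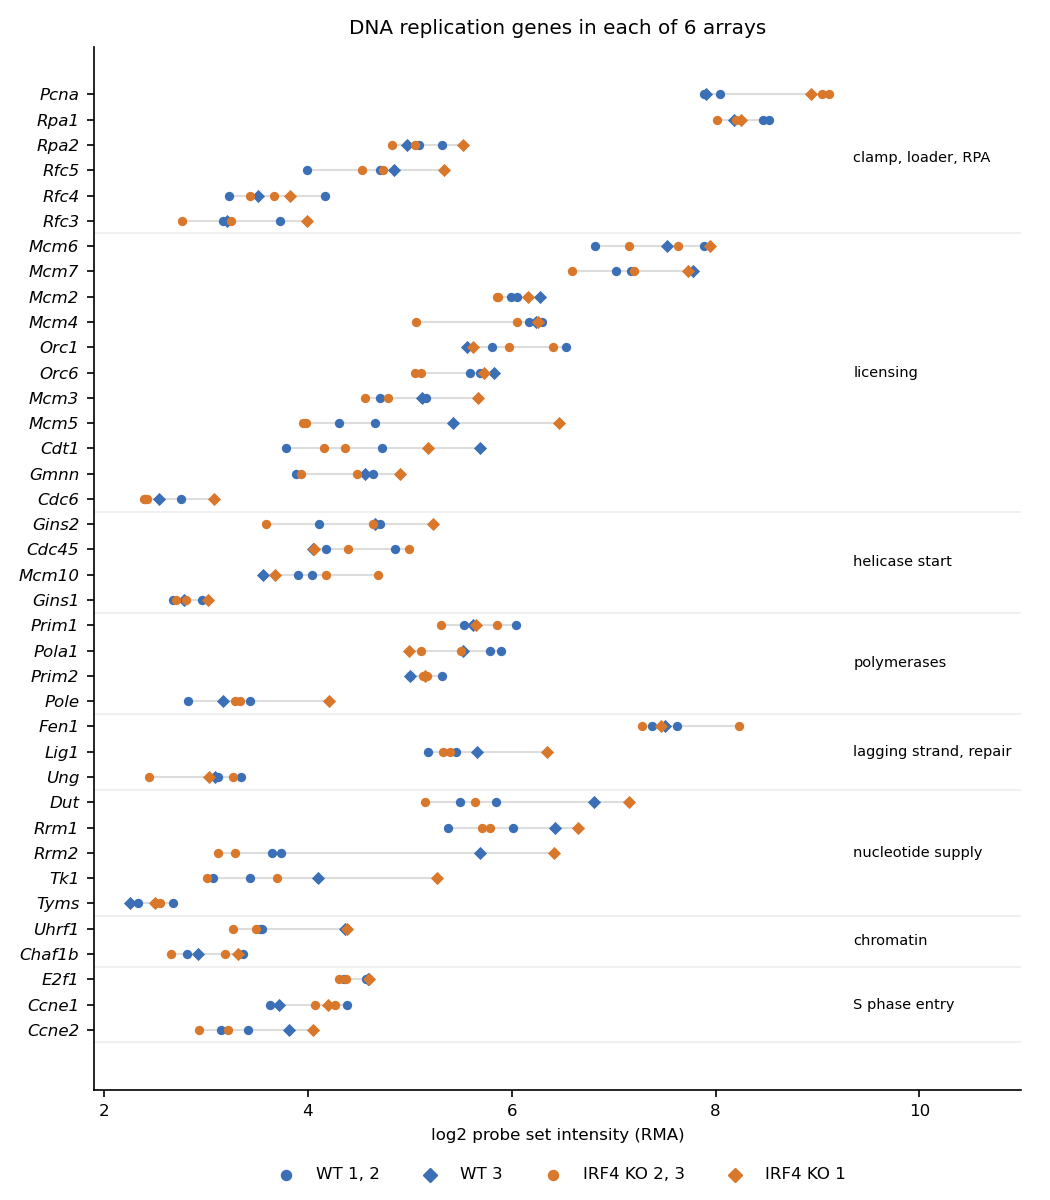
Log2 probe set intensity of each of 38 measured replication genes in 6 arrays, grouped by role. Blue points are WT and orange points IRF4 KO arrays, diamonds are WT 3 and IRF4 KO 1, and the grey line spans the range; genotypes separate without overlap in Pcna (higher in IRF4 KO) and Pola1 (lower).

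None of the 37 other replication genes came near the change of Pcna. No member passed the limma threshold (0 of 38), as no gene did over the whole table (0%). At an unadjusted p under 0.05, Pcna and Pola1 were called (2 of 38), against 1.49% of all genes. On the probe sets used, the same 2 genes had no overlap between genotypes, 5.26% of the members, against 5.68% of all genes in either direction, a share near the background. Split by direction, 2.37% of all genes lay wholly higher and 3.31% wholly lower. Leaving Pcna aside, 21 of 37 genes read higher in IRF4 KO and 16 lower, with changes from -0.53 (Pola1) to 0.47 (Pole). Their median change was 0.0057, beside -0.0015 over all genes, of which 49.7% read higher. In 26 of the 37 the change was under 0.2 in size, and in 3 it exceeded the larger SD of both genotypes. The 95% interval of the change lay wholly below Pcna's 1.09 in 32 of the 37. The exceptions were Mcm5, Rrm2, Tk1, Pole and Dut, whose intervals were wide, as in Rrm2 (-2.14 to 1.97).

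Pcna also differed from the other members in how little it varied within a genotype. The pooled SD within genotypes was 0.090 for Pcna, and 0.13 to 1.54 for the other 37, with a median of 0.44, so that 0 of them lay below Pcna. Over all genes the median was 0.29, and 2.58% of genes had a smaller SD than Pcna. A change larger in size than that of Pcna was seen in 44 genes (0.242%). These ranks describe a gene that was known to stand out when the members were chosen, and no test was made of them.

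**Figure D2:**
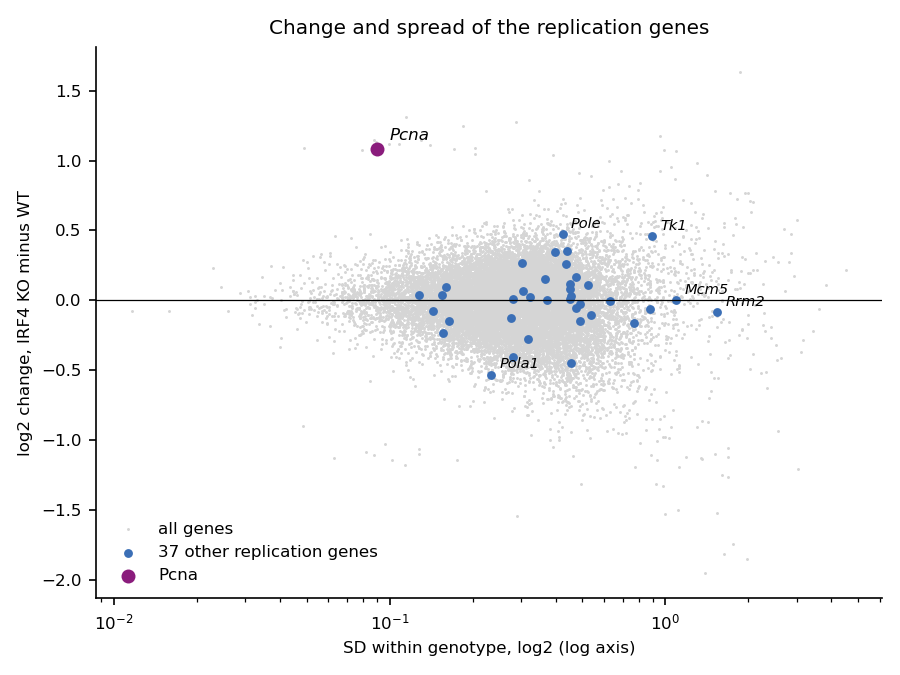
Log2 change (IRF4 KO minus WT) against the pooled SD within genotypes on a log axis. Grey points are all 18194 genes, blue points the 37 other replication genes and the purple point Pcna, at a change of 1.09 and an SD of 0.090.

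Set against the other members array by array, Pcna lay apart by genotype and the median of the others did not. Relative to each gene's mean over the 6 arrays, Pcna stood at -0.44, -0.60 and -0.58 in WT 1, 2 and 3 and 0.45, 0.63 and 0.56 in IRF4 KO 1, 2 and 3. The median of the 37 others stood at -0.040, -0.10 and 0.052 in WT 1, 2 and 3 and 0.39, -0.16 and -0.21 in IRF4 KO 1, 2 and 3. The others were thus highest in IRF4 KO 1 and lowest in IRF4 KO 2 and 3, with the WT arrays in between. Pcna minus that median was -0.40, -0.50 and -0.64 in WT 1, 2 and 3 and 0.055, 0.79 and 0.77 in IRF4 KO 1, 2 and 3, negative in all WT arrays and positive in all IRF4 KO arrays, though nearest to 0 in IRF4 KO 1. The difference between genotypes in this quantity was 1.05, a description with no test.

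**Figure D3:**
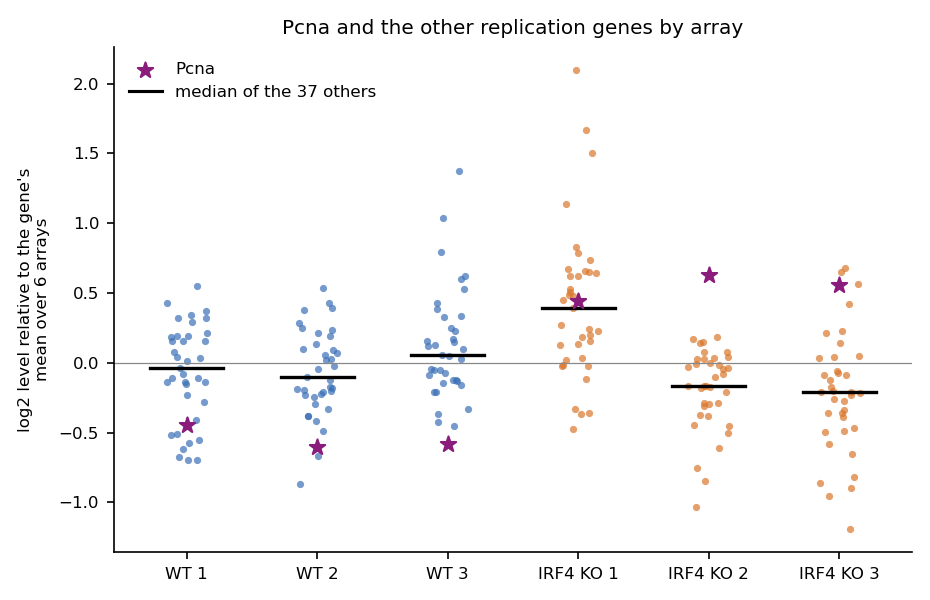
Log2 level relative to each gene's mean over 6 arrays, by array. Points are the 37 other replication genes, black bars their median and stars Pcna, which lies below the median of the others in each WT array and above it in each IRF4 KO array.

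Like most genes, most replication genes differed more between the sets of arrays than between genotypes, 29 of the 37 members other than Pcna by the size of the mean difference, a share near the 71.3% of all genes. In 14 of the 37 members other than Pcna (37.8%), WT 3 and IRF4 KO 1 held the 2 highest values, against 17.5% of all genes. IRF4 KO 1 was the highest array in 19 of the 37 (51.4%), against 17.6% of all genes. The mean of WT 3 and IRF4 KO 1 minus the mean of the other 4 arrays had a median of 0.35 over the 37, beside -0.031 over all genes, and ran from -0.59 (Orc1) to 2.60 (Rrm2). For Pcna it was -0.10. Among members with a promoter window, the median of this quantity was 0.59 in the 11 with an E2F motif and 0.11 in the 19 without, Pcna left out, while the median genotype change was 0.0024 and 0.0057. The ranges overlapped, from -0.59 (Orc1) to 1.72 (Mcm5) with the motif and from -0.58 (Mcm10) to 2.60 (Rrm2) without it. A link of the motif to this quantity was not tested.

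Between IRF4 KO 1 and WT 3 the replication genes mostly read higher in the knockout, and among the other 4 arrays mostly lower. The first difference was positive in 30 of the 37 members other than Pcna (median 0.24), beside 50.2% of all genes. The second was positive in 13 of 37 (median -0.16), beside 50.1% of all genes. In 21 of the 37 (56.8%) the signs were opposite, beside 47.9% of all genes. Pcna read higher in the knockout in both, whereas the differences of Pola1 were -0.53 and -0.53. With 1 array a genotype, the first difference has no replicate check. Among the 4 arrays, limma called 0 members and 5 genes in all (0.0275%).

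**Figure D4:**
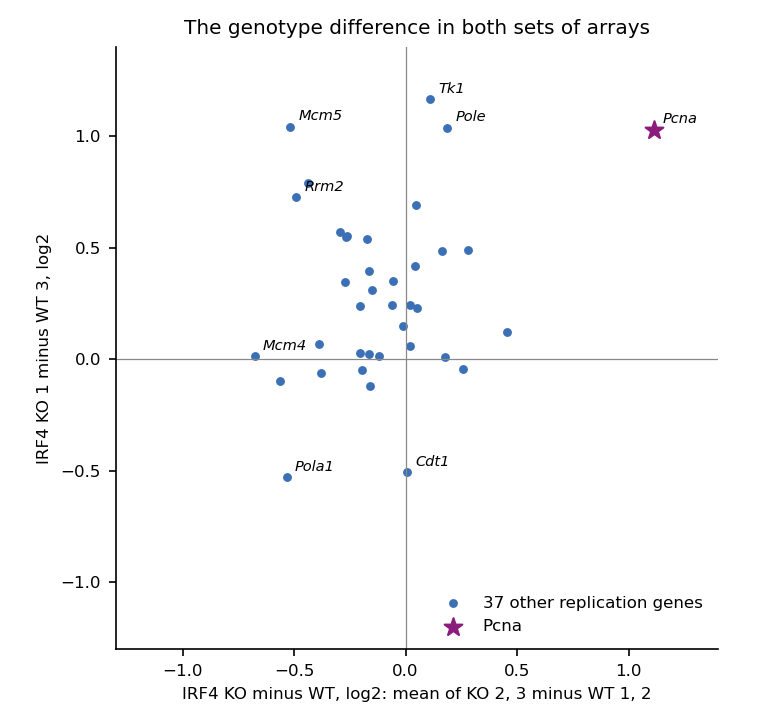
Genotype difference on the log2 scale between IRF4 KO 1 and WT 3 (vertical axis) against that among the other 4 arrays (horizontal axis) for 38 replication genes. Pcna, the star, is near 1.03 and 1.11, whereas 21 of the 37 others have opposite signs in both sets, beside 47.9% of all genes.

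The genes of the clamp loader and of the protein that coats single-stranded DNA did not share the values of Pcna. The clamp loader subunits Rfc3, Rfc4 and Rfc5 overlapped between genotypes, with differences of -0.029, 0.0026 and 0.35. The other probe set of Rfc4, also dim, gave -0.58. It read 3.97, 3.43 and 3.40 in WT 1, 2 and 3 and 3.41, 3.08 and 2.55 in IRF4 KO 1, 2 and 3. The other probe set of Rfc3 gave 0.11. Rfc5 read 3.99, 4.71 and 4.84 in WT 1, 2 and 3 and 5.33, 4.53 and 4.73 in IRF4 KO 1, 2 and 3, with IRF4 KO 1 highest and WT 1 lowest. Rpa1, the large subunit of the protein that coats single-stranded DNA, read 8.47, 8.52 and 8.18 in WT 1, 2 and 3 and 8.25, 8.20 and 8.02 in IRF4 KO 1, 2 and 3, with WT 3 below IRF4 KO 1 and 2. Its difference was -0.24 on this probe set and 0.39 on its other, of the opposite sign. Rpa2, the middle subunit, differed by 0.0057. Taken between IRF4 KO 1 and WT 3 and then among the other 4 arrays, the difference was 0.49 and 0.28 for Rfc5 and 0.070 and -0.39 for Rpa1.

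Among the licensing genes, 6 of 11 read higher and 5 lower in IRF4 KO, and the median change was 0.0024. On the probe sets used, the MCM2-7 helicase subunits bound the range of this group at both ends, from Mcm4 (-0.45) to Mcm6 (0.17). Mcm6 read 6.82, 7.88 and 7.52 in WT 1, 2 and 3 and 7.94, 7.63 and 7.15 in IRF4 KO 1, 2 and 3, with WT 1 and IRF4 KO 3 lowest. Its other probe sets gave -0.25 and -0.093, of the opposite sign. The brighter of them read 7.20, 6.99 and 6.69 in WT 1, 2 and 3 and 6.97, 6.96 and 6.21 in IRF4 KO 1, 2 and 3, with WT 1 highest. Mcm4 read 6.17, 6.30 and 6.24 in WT 1, 2 and 3 and 6.25, 6.06 and 5.06 in IRF4 KO 1, 2 and 3, so that its lower IRF4 KO mean came from IRF4 KO 3, the other 5 arrays lying between 6.06 and 6.30. The other probe set of Mcm4, nearly as bright, gave a smaller change of -0.11. There IRF4 KO 1 (6.44) and WT 3 (6.30) were highest. Mcm5 read 4.66, 4.30 and 5.42 in WT 1, 2 and 3 and 6.46, 3.95 and 3.98 in IRF4 KO 1, 2 and 3, highest in IRF4 KO 1 and WT 3 and lowest in IRF4 KO 2 and 3, and its change of 0.0024 (SE 0.65) averaged those opposites. The other probe sets of Mcm5, both dimmer, gave 0.52 and -0.067. Orc6, a subunit of ORC, had the smallest p of the licensing genes and read 5.69, 5.59 and 5.82 in WT 1, 2 and 3 and 5.73, 5.05 and 5.11 in IRF4 KO 1, 2 and 3. IRF4 KO 2 and 3 lay below every WT array and IRF4 KO 1 among them, a change of -0.41 (SE 0.23, limma adjusted p = 0.999). The licensing factors Cdc6 and Cdt1 differed by 0.063 and -0.17, and Gmnn, which encodes the Cdt1 inhibitor geminin, by 0.079. In the pair IRF4 KO 1 and WT 3 and in the other 4 arrays, the differences of Mcm5 were 1.04 and -0.52, of opposite sign. Those of Mcm6 were 0.42 and 0.041, those of Mcm4 0.014 and -0.68 and those of Orc6 -0.096 and -0.56, and in Mcm4 and Orc6 the difference was larger in size in the 4 arrays.

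Of the genes that switch the helicase on, Mcm10, Cdc45 and Gins1 read higher in IRF4 KO and Gins2 lower, each within the spread between arrays. Mcm10, which helps activate the helicase, read 4.04, 3.90 and 3.56 in WT 1, 2 and 3 and 3.68, 4.17 and 4.69 in IRF4 KO 1, 2 and 3, lowest in WT 3 and IRF4 KO 1, the reverse of Mcm5. Its change was 0.35 (SE 0.28), and its other probe sets gave 0.17 and 0.13. Gins2, a subunit of the GINS complex, read 4.70, 4.11 and 4.66 in WT 1, 2 and 3 and 5.23, 4.64 and 3.59 in IRF4 KO 1, 2 and 3, and its spread within IRF4 KO was far wider than the difference of -0.0066 between genotypes. Cdc45, which joins GINS and MCM2-7 in the active helicase, differed by 0.12 and Gins1 by 0.041. The difference in the pair and in the other 4 arrays was 0.12 and 0.46 for Mcm10 and 0.57 and -0.29, of opposite sign, for Gins2.

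Pola1, the catalytic subunit of the polymerase that extends primers, was the member with the smallest p after Pcna. It read 5.78, 5.89 and 5.52 in WT 1, 2 and 3 and 4.99, 5.50 and 5.11 in IRF4 KO 1, 2 and 3. WT 3 and IRF4 KO 2, at the edge of both genotypes, lay close together, so that the separation was narrow. The change was -0.53 (SE 0.21, 95% interval -1.02 to -0.043, limma adjusted p = 0.999), while its other, dim probe set gave 0.13. Prim1, the catalytic subunit of primase, read 5.53, 6.04 and 5.62 in WT 1, 2 and 3 and 5.65, 5.85 and 5.31 in IRF4 KO 1, 2 and 3, with overlapping ranges and a change of -0.13. Its other probe set, a little dimmer, gave -0.43. That set read 5.49, 5.41 and 5.10 in WT 1, 2 and 3 and 4.77, 5.14 and 4.81 in IRF4 KO 1, 2 and 3, with IRF4 KO 2 just above WT 3. Prim2, the regulatory subunit of primase, differed by 0.041. Pole, the leading strand polymerase, differed by 0.47, with IRF4 KO 1 at 4.21 and the other 5 arrays between 2.82 and 3.43. In the pair and in the other 4 arrays Pole differed by 1.04 and 0.19 and Prim1 by 0.027 and -0.20.

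In the joining of Okazaki fragments, Fen1 cuts the flap and Lig1 seals the nick. Fen1 read 7.62, 7.38 and 7.50 in WT 1, 2 and 3 and 7.46, 7.28 and 8.23 in IRF4 KO 1, 2 and 3, with IRF4 KO 3 highest, and differed by 0.16. Its other probe set, which is dimmer, read 3.83, 3.71 and 4.30 in WT 1, 2 and 3 and 4.88, 3.54 and 3.53 in IRF4 KO 1, 2 and 3, with IRF4 KO 1 and WT 3 highest as in Mcm5 and Rrm2, so that the probe sets of this gene did not agree on the order of the arrays. Lig1 read 5.45, 5.18 and 5.66 in WT 1, 2 and 3 and 6.35, 5.39 and 5.33 in IRF4 KO 1, 2 and 3, with IRF4 KO 1 highest. Ung, which removes uracil from DNA, read 3.34, 3.12 and 3.09 in WT 1, 2 and 3 and 3.03, 2.44 and 3.26 in IRF4 KO 1, 2 and 3, lowest in IRF4 KO 2, and differed by -0.27 (SE 0.25). In the pair and in the other 4 arrays the differences were -0.044 and 0.26 for Fen1, 0.69 and 0.046 for Lig1 and -0.061 and -0.38 for Ung.

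Nucleotide supply held Rrm2, the member that varied most between arrays of a genotype. Rrm2, the S phase subunit of ribonucleotide reductase, read 3.74, 3.65 and 5.69 in WT 1, 2 and 3 and 6.41, 3.28 and 3.12 in IRF4 KO 1, 2 and 3. WT 3 and IRF4 KO 1 stood about 2 log2 units or more above the rest, and the genotype change was -0.085 (SE 0.89). Its other probe sets, both dimmer, gave changes of 0.44 and 0.18. The first of these read 2.91, 2.59 and 2.83 in WT 1, 2 and 3. In IRF4 KO 1, 2 and 3 it read 3.32, 3.00 and 3.33, all above WT. On the second, WT 3 and IRF4 KO 1 were again highest, so that the probe sets of Rrm2 did not agree on the order. Tk1, the salvage thymidine kinase of S phase, read 3.07, 3.43 and 4.10 in WT 1, 2 and 3 and 5.27, 3.01 and 3.70 in IRF4 KO 1, 2 and 3, again highest in IRF4 KO 1 and WT 3, and differed by 0.46 (SE 0.54). Dut, which clears dUTP, read 5.50, 5.84 and 6.81 in WT 1, 2 and 3 and 7.15, 5.64 and 5.15 in IRF4 KO 1, 2 and 3, with the same 2 arrays highest. Rrm1, the large reductase subunit, had this order as well. Tyms, the thymidylate synthase, read 2.26 to 2.68 over the 6 arrays, without that order and below the median gene. In the pair and in the other 4 arrays Rrm2 differed by 0.73 and -0.49 and Dut by 0.35 and -0.27, with opposite signs, and Tk1 by 1.17 and 0.11.

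Uhrf1, which brings the methyltransferase Dnmt1 to newly copied DNA, read 3.53, 3.55 and 4.36 in WT 1, 2 and 3 and 4.39, 3.26 and 3.49 in IRF4 KO 1, 2 and 3, with WT 3 and IRF4 KO 1 highest and a change of -0.10. Its other probe set did not show that order, reading 3.72, 3.52 and 3.30 in WT 1, 2 and 3 and 3.79, 3.30 and 3.64 in IRF4 KO 1, 2 and 3. Chaf1b, a histone chaperone subunit, differed by 0.021. Of the S phase entry genes, E2f1 read 4.35, 4.57 and 4.59 in WT 1, 2 and 3 and 4.60, 4.30 and 4.38 in IRF4 KO 1, 2 and 3, and its change of -0.076 was of the opposite sign to those of its other probe sets (0.28 and 0.26). The E-type cyclins, partners of the kinase Cdk2, differed by 0.27 (Ccne1, 4.38, 3.63 and 3.71 in WT 1, 2 and 3 and 4.20, 4.07 and 4.27 in IRF4 KO 1, 2 and 3) and -0.056 (Ccne2). In the pair and in the other 4 arrays the differences were 0.025 and -0.17 for Uhrf1, 0.014 and -0.12 for E2f1 and 0.49 and 0.16 for Ccne1.

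How firmly single members can be read was limited by dim signal and by their probe sets. Of the 37 members other than Pcna, 16 lay above the median of all gene means (4.89), and RMA compresses changes of weaker ones. Of 28 members with several probe sets, 19 had at least 1 whose change was of the opposite sign to the one used. Over all 80 probe sets of the other members, the largest change was 0.58 in size, a lower reading in IRF4 KO on the unused probe set of Rfc4. In 25 of the 80, WT 3 and IRF4 KO 1 were the 2 highest arrays. In 9 members the probe set used was of a type (x or s) whose probes can also match other transcripts, Mcm5, Rrm2 and Fen1 included. Pcna has 1 probe set in this annotation, so that its change rests on that set alone.

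Other genes of replication and of the cell cycle gave no more calls. Of 47 measured replication genes outside the list, 21 read higher, 0 passed over all genes and the median change was -0.055. The smallest p values among them were those of Rnaseh2c, a subunit of the enzyme that removes RNA from DNA, at 8.04 ± 0.48 in WT against 7.41 ± 0.24 in IRF4 KO, and Orc2, an ORC subunit, at 6.22 ± 0.12 in WT against 5.83 ± 0.15 in IRF4 KO (changes -0.63 and -0.39). Of 27 mitosis genes, 16 read higher, 0 passed and the median change was 0.025. Tpx2, a spindle factor, read 5.17 ± 0.41 in WT against 5.58 ± 0.60 in IRF4 KO, and Top2a, the topoisomerase that untangles chromosomes, 4.33 ± 0.52 in WT against 4.54 ± 0.23 in IRF4 KO. In 19 of the 27 mitosis genes WT 3 and IRF4 KO 1 were the 2 highest arrays, beside 14 of 37 replication genes.

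Upstream of S phase, 0 of 26 G1 control genes passed, 13 read higher and the median change was -0.0026. Ccnd1, the D-type cyclin that starts the release of E2F, read 6.16, 6.09 and 6.32 in WT 1, 2 and 3 and 7.38, 7.29 and 7.34 in IRF4 KO 1, 2 and 3. Cdkn1a, which encodes the p21 inhibitor of cyclin-dependent kinases that also binds PCNA, read 8.94, 9.08 and 9.16 in WT 1, 2 and 3 and 7.67, 7.97 and 8.11 in IRF4 KO 1, 2 and 3. Like Pcna, both separated the genotypes without overlap, as did 5.68% of all genes in either direction. Their changes were 1.15 (limma adjusted p = 0.252) and -1.15 (0.291). Their pooled SDs within genotypes were 0.088 and 0.18, against 0.19 or more in each of the other 24 G1 control genes. The changes of those 24 lay between -0.55 and 0.23. Ccnd1 and Cdkn1a were named for the smallest p in the list, which rests on change and SD. The contrast with the other 24 follows from that choice. Of those 24, 1 lay wholly lower in IRF4 KO and 1 had an unadjusted limma p under 0.05. Of 24 measured genes whose proteins bind or modify PCNA, Cdkn1a, Fen1, Lig1, Ung and Cdt1 among them, 9 read higher and 0 passed. After Cdkn1a the smallest p there was that of Ercc5, a repair nuclease, at 6.08 ± 0.038 in WT against 5.76 ± 0.25 in IRF4 KO.

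Marker genes of other cell types moved with the same 2 arrays. The 12 macrophage markers had a mean level of 7.11 in WT 3 and 8.12 in IRF4 KO 1, against 4.49 to 5.36 in the others, and 9 of 12 were higher in both than in any other array. For the 10 cartilage markers the means were 7.32 and 7.36 against 3.52 to 3.95 (9 of 10), and for the 8 fibroblast markers 9.60 and 10.14 against 7.91 to 8.0 (7 of 8). The endothelial list differed less, with 4 of 9 markers higher in both arrays and means of 6.48 to 7.27 in WT and 6.79 to 7.50 in IRF4 KO. T cell markers (8 measured) averaged 3.68 to 4.0 and 3.82 to 4.04, B cell markers (6) 3.48 to 3.77 and 3.65 to 3.95, and marrow and blood markers (10) 3.35 to 4.17 and 3.43 to 3.68, all near the dim end of the scale. The part of these cells, and of the poly-A and hybridization control levels, in the high replication values of WT 3 and IRF4 KO 1 was not tested. The genotype difference of Pcna was about as large within each set of arrays as over all 6.

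**Figure D5:**
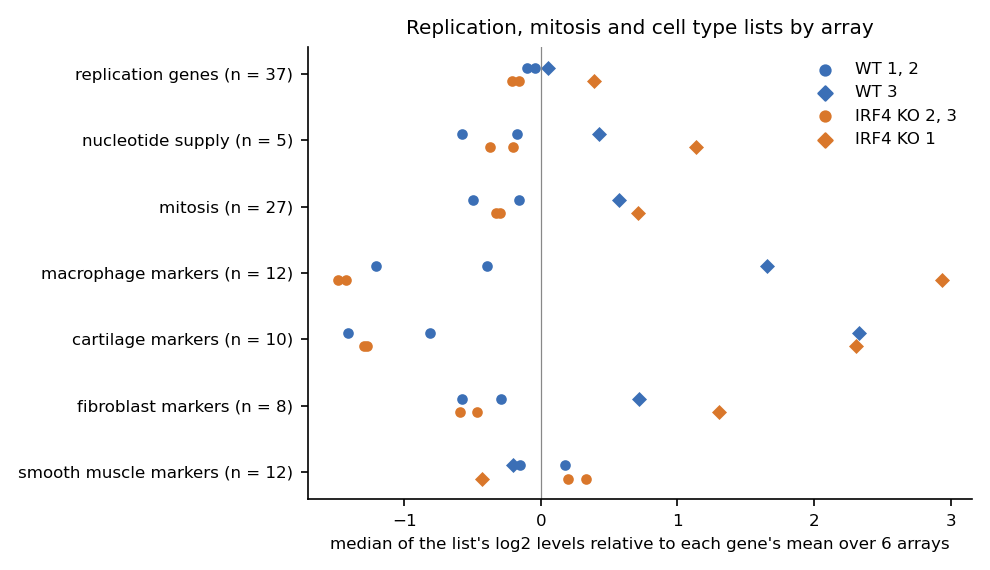
Median over each list of the log2 levels relative to each gene's mean over 6 arrays. Blue marks are WT and orange marks IRF4 KO, with diamonds for WT 3 and IRF4 KO 1, which are highest in the replication, nucleotide supply, mitosis, macrophage, cartilage and fibroblast lists and not in the smooth muscle list.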

How the data were processed

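Each array held biotin-labelled cRNA from 400 ng of total RNA. The deposited table gives log2 intensities per probe set, which the authors computed by RMA in Affymetrix Expression Console, per the submitters' processing notes, in versions not stated there. Of 45101 probe sets, 34958 carried 1 gene symbol in the platform annotation, 932 several and 9211 none. Entrez numbers matched 34754 of the former to RefSeq (GRCm38.p6) and changed 0 symbols. Dim genes were kept.

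The genotypes were tested in R 4.3.3 by limma 3.58.1 (lmFit, eBayes, two-sided) on all 18194 genes, with Benjamini-Hochberg adjustment and a threshold of 0.05. The labels do not say how animals were allotted to pools, so p-values measure the spread between these pools, whose number limits the precision. In a simulation of the same test on 18194 genes, with 100 changed per size, 16% of changes of 1 log2 unit and 66% of changes of 2 were recovered. It called 5 unchanged genes, and 0 when nothing was changed. The changed genes were drawn only from those above the median level, whereas 21 of the 37 other members lay below it. Noise was drawn separately for each array, without the shift shared by WT 3 and IRF4 KO 1.

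The members, lists and alternatives were chosen with earlier results of these data known. Named by rule were Pcna, the member of highest mean and of smallest p per role, members with unadjusted p under 0.05, and the 2 genes of smallest p in each further list. Other members were chosen after their values were seen. Of 233 listed genes, 6 were not measured. Alternatives covered the replicate number as a block, averaging probe sets, a filter on dim genes, median and quantile scaling, a robust trend, array weights, left-out arrays, and the poly-A level as a block or as separate sets.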

Additional observations from a re-analysis of the deposited data

How the results depend on the processing

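The change of Pcna lay between 1.03 and 1.21 under all 16 alternatives tried, and 1.04 to 1.14 when single arrays were left out (limma adjusted p from 0.608 to 1.0). Leaving out or weighting arrays could not turn its sign, since every IRF4 KO value lay above every WT value. Both blocks, the averaging of probe sets, the dim filter and the robust trend left its change as it was, and only its p could differ. Pcna passed the threshold with array weights alone (1.21, limma adjusted p = 0.00178), where 68 genes (0.374%) and 1 member were called. Those weights rest largely on IRF4 KO 2, and their estimation stopped before it converged. With the poly-A level as a block the adjusted p was 0.0904, and 0 genes passed. Over the 4 arrays with high poly-A controls 5 genes passed. Over all 6 arrays, 271 genes, 2 of them members, had an unadjusted p under 0.05. Pcna minus the median of the others lay between 0.79 and 1.29 (0.96 to 1.28 with an array left out).

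The direction of the other members as a group was not stable. The number read higher, 21 of 37, was 11 with array weights, 13 over the 4 arrays, 8 of 16 without dim genes and 9 to 26 when single arrays were left out (9 without IRF4 KO 1). Their median change ran from -0.18 to 0.11 in those fits, with the lowest value without IRF4 KO 1, and that of all genes from -0.014 to -0.0016. The median of all genes was -0.067 without dim genes and -0.036 with array medians subtracted. Of 13 other members named by the rule, 8 changed sign in at least 1 alternative and 0 passed the threshold. With the mean of all probe sets the reversed changes were Mcm6 (-0.057), Gins2 (0.14) and E2f1 (0.15). With array weights they were Mcm6 (-0.090), Tk1 (-0.43), Gins2 (0.39) and Fen1 (-0.13). Between IRF4 KO 1 and WT 3 they were Prim1 (0.027), Gins2 (0.57), Fen1 (-0.044), Uhrf1 (0.025), Dut (0.35) and E2f1 (0.014). With single arrays left out, the reversing members ranged as follows: Mcm6 from -0.13 to 0.40, Tk1 from -0.18 to 0.95, Prim1 from -0.25 to 0.029, Gins2 from -0.38 to 0.44, Fen1 from -0.13 to 0.34, Uhrf1 from -0.44 to 0.17 and Dut from -0.65 to 0.35. The cause of these moves was not tested.

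Same-numbered arrays were not alike throughout: their deviations from the genotype means correlated at -0.52, 0.37 and -0.62, and WT 3 correlated best with IRF4 KO 1 (0.68). With 3 arrays per genotype and the shift shared by WT 3 and IRF4 KO 1, these values cannot show whether same-numbered arrays were handled together. The sample labels name no such pairing. With the replicate number as a block, 0 genes passed, the change of Pcna was 1.09 (limma adjusted p = 1.0), its difference from the median of the others 1.05, that median 0.0057, and 21 of 37 others read higher. Signal over background limits what can be read: 21 of the 37 other members lay below the median gene.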
